A study of Mus musculus with 17 samples.

Results

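Ribosome biogenesis genes encode the factors that transcribe, modify, cut and fold ribosomal RNA and assemble it with ribosomal proteins. The list described here names 39 such genes, each of which had at least 1 probe on the array, among 19057 gene symbols with a probe. The brightest probe stood for each gene, and 38 of the 39 genes passed the filter on dim probes and were tested together with the other genes, 14737 in all. They were followed in whole mouse uterus over 8 groups. These were wild-type (WT) and Egr1 knockout (KO) uteri before estradiol (E2), the main ovarian estrogen, here called 0 h, and 3, 6 or 24 h later, with 3 arrays for WT 3 h and 2 for each other group. The labels give no strain, age, E2 dose, vehicle or ovariectomy for any group, do not describe the knockout allele, and do not say whether an array holds 1 animal or a pool. Egr1 encodes a transcription factor that is induced early by many signals, and the design asks how uterine RNA responds to E2 with and without it.

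A ribosome is built in the nucleolus. RNA polymerase I transcribes a long precursor RNA, small nucleolar ribonucleoproteins (snoRNPs) guide its methylation and pseudouridylation, and 2 largely separate sets of assembly factors turn its parts into the small (40S) and large (60S) subunits. Cells that prepare to grow or divide raise this work, and the rodent uterus, which gains mass and then divides its epithelium after estrogen, is a classical tissue in which estrogen raises ribosomal RNA synthesis.

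Values are log2 signals that the authors had normalized between arrays, so that a change is measured against the rest of that array's genes. Every adjusted p below is from limma's moderated test with Benjamini-Hochberg adjustment over 14737 genes, and a gene was called at an adjusted p under 0.05. Separate animals are not stated for the samples within a group, and a p-value here therefore covers only how far these samples lay apart, in part perhaps for technical reasons. In whole-tissue RNA, fewer cells of a type and less RNA per cell cannot be told apart. WT and KO stand for arrays labelled so: at 0 h the Egr1 probe read 12.37 ± 0.19 in WT but 13.55 ± 0.11 in KO (SD, 2 arrays each), and without its place relative to the deletion, which no source used here gives, it does not check the labels. Arrays of a group correlated at 0.990 to 0.997 over all 45281 probes and no pair was identical. Single arrays nevertheless stood apart. The mean centred level of the 38 genes was -0.48 in array 1 and -0.70 in array 2 of WT 0 h, and 0.24 and 0.09 in the KO 3 h arrays. The second KO 0 h array had high macrophage and granulocyte markers (mean centred levels of 1.04 and 1.11, against 0.18 and 0.05 in the first). Array 2 of WT 0 h, in which the list was lowest, bears on all WT changes from 0 h, and the values without it are given where a call was lost or a change moved by over 1.5 times.

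After E2 the list rose as a near whole in both genotypes. In WT, 34 of the 38 tested genes were higher at 3 h than at 0 h and 0 were lower, where 22.2% of all genes tested were called higher and 24.5% lower. At 6 h 35 were higher and 0 lower (21.9% and 22.1% of all genes), and at 24 h 26 were higher and 1 lower (18.9% and 19% of all genes). In KO the counts were 32 higher and 0 lower at 3 h (19% and 21.4% of all genes), 34 and 0 at 6 h (21.8% and 23%), and 33 and 0 at 24 h (22.5% and 23.1%). The median change of the 38 genes was 0.88, 0.97 and 0.33 on the log2 scale in WT at 3, 6 and 24 h, and 0.79, 1.11 and 0.66 in KO, where the median over all genes lay within 0.01 of 0 in each. A rise of at least 2-fold was reached by 15, 18 and 0 genes in WT and by 11, 20 and 8 in KO. Of the 38 genes 24 were called higher in all 6 comparisons with 0 h, and 1, Utp20, in none.

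**Figure D1:**
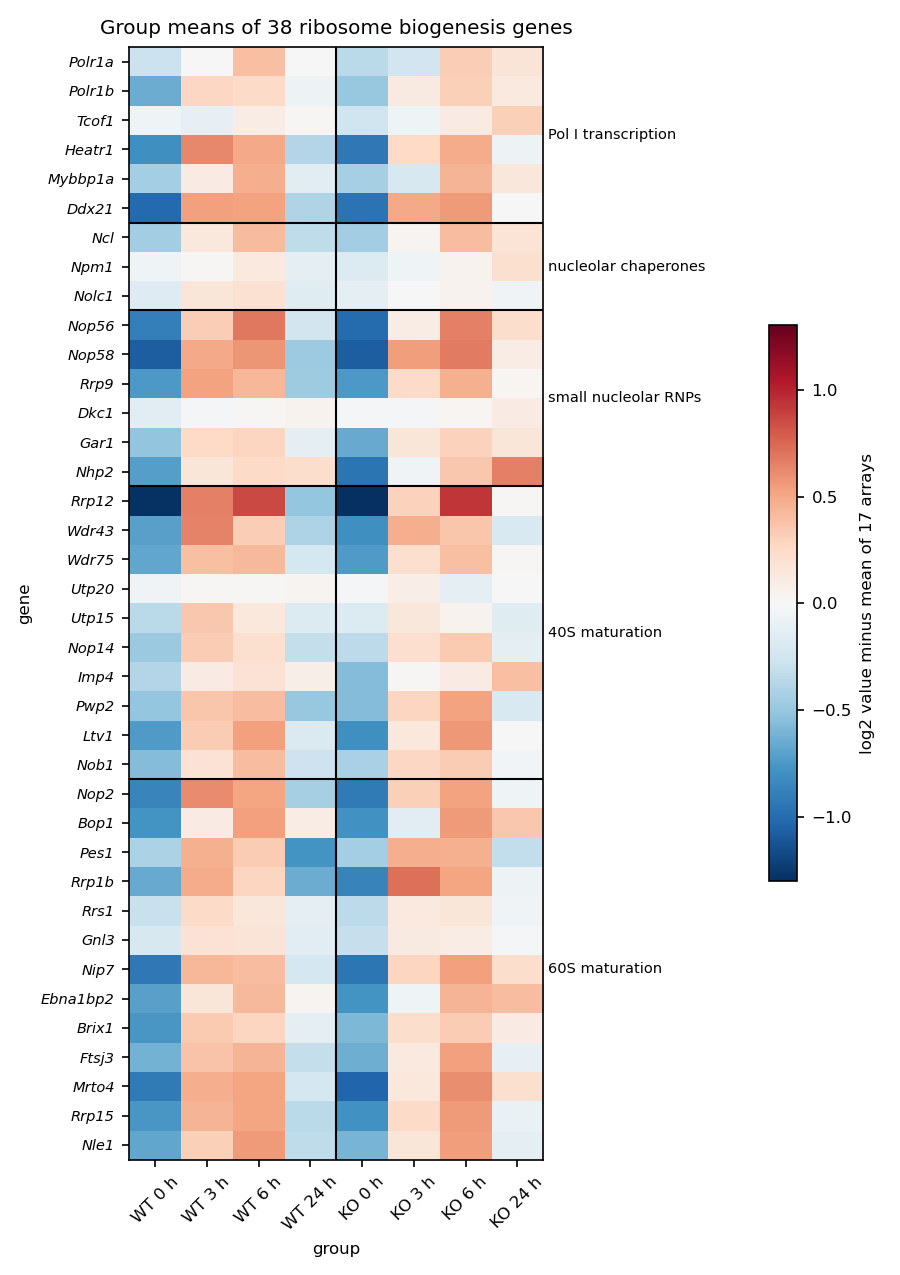
Group means of 38 ribosome biogenesis genes (rows, ordered by role) in the 8 groups (columns), as the log2 value minus the gene's mean over the 17 arrays. Most rows are lowest at 0 h and highest at 3 or 6 h in both genotypes, and the WT 24 h column is bluer than the KO 24 h column.

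Membership in the tested set itself depended little on the response. Of the 38 genes 34 exceeded the array median of 8.20 on all 17 arrays. Nolc1 did so on 16 arrays, Gnl3 on 13, Utp20 on 8 and Dkc1 on 6, and the changes of these dim probes may be compressed. Bysl, which encodes bystin of the 40S pathway, exceeded it on 0 of 17 arrays. Its levels ran from 7.75 to 8.07, and it was not tested.

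The genes can be placed next to their promoters, since the E-box CACGTG is the site of the MYC family, a known regulator of ribosome biogenesis. RefSeq promoter windows of 300 bases (250 before to 50 after the start, build GRCm38.p6) were at hand for 34 of the 39 genes. The E-box stood in 8 of these (23.5%), namely Mybbp1a, Wdr43, Utp20, Imp4, Ltv1, Nop2, Pes1 and Nle1, against 10.7% of the 11820 tested genes with a window and 8.09% of all 27025 genes with a window. The letters read the same on both strands. The 4 with the largest WT change at 3 h are shown with the E-box in capitals, each read 5′ to 3′ on the gene's strand, at chr6:125131783-125131882 (plus strand) for Nop2, chr17:71616220-71616249 (plus) for Wdr43, chr10:13193092-13193121 (minus) for Ltv1 and chr11:82908355-82908384 (minus) for Nle1.
Nop2: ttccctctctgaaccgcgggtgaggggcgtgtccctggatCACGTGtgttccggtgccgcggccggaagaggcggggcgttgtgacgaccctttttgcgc
Wdr43: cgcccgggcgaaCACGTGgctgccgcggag
Ltv1: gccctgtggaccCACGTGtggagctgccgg
Nle1: tcggttctcctcCACGTGgggacgcaggat
The E-box began at -60 from the start in Nop2, and at 18, 29 and 24 bases after it in Wdr43, Ltv1 and Nle1. Of the 8 genes with an E-box 7 were called higher in WT at 3 h, by 0.49 for Imp4 to 1.48 for Nop2, against 34 of the 38 tested genes of the list. The other, Utp20, has a dim probe and changed by 0.07. An estrogen response element (GGTCA, any 3 letters, TGACC, both strands) stood in 0 of the 34 genes and in 0.0254% of tested genes, and an EGR1 site (GCGTGGGCG, both strands) in 0 and 1.26%. An ETS site (CTTCCGG, both strands), chosen after the values were seen, stood in 11 genes, or 32.4%, against 16.4% of tested genes, and Ltv1 and Nop2 held both this site and the E-box. A match is a description of these letters only.

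Transcription of ribosomal RNA by RNA polymerase I is represented by 6 genes. In WT 5 of them were higher at 3, 6 and 24 h. Ddx21, a nucleolar RNA helicase, read 11.48 and 10.83 in the 2 WT arrays at 0 h, 12.75, 12.69 and 12.66 at 3 h, 12.70 and 12.70 at 6 h and 11.80 and 11.75 at 24 h. All 7 treated WT arrays lay above both 0 h arrays, with most of the rise gone at 24 h. Its change was 1.55 ± 0.14 (SE; 2.92-fold, adjusted p = 9.44e-07 with limma) at 3 h and 0.62 at 24 h. The 24 h change was 0.95 without array 1 of WT 0 h and 0.30 without array 2, where the call was lost, as it was with only the compared groups fitted.

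Heatr1, needed for ribosomal RNA transcription and early processing, followed the same course, with changes of 1.43, 1.30 and 0.42 in WT and 1.19, 1.41 and 0.86 in KO. Its WT change at 24 h was 0.65 and 0.20 without arrays 1 and 2 of WT 0 h in turn, and the call was lost without array 2, without array 1 of WT 24 h and with only the compared groups fitted. On the probes used, the 2 polymerase subunit genes differed in timing. Polr1b rose by 0.92 at 3 h and 0.90 at 6 h in WT. Polr1a, which encodes the largest subunit, read 11.62 and 11.37 at 0 h, 11.76, 11.68 and 11.88 at 3 h and 12.19 and 12.15 at 6 h in WT. Its 6 h arrays lay above all others of WT, and it rose by 0.28 ± 0.08 (SE, adjusted p = 0.0143 with limma) at 3 h and 0.67 ± 0.09 (SE, adjusted p = 3.85e-05) at 6 h. The 3 h call was lost without array 2 of WT 0 h (0.15) or without array 3 of WT 3 h. The 24 h change in WT (0.29) was 0.16 without array 2 of WT 0 h and 0.06 as a mean over the kept probes of the gene, and was called in neither. Other kept Polr1a probes, at mean levels of 9.58, 9.25 and 8.90, varied in timing. In WT they changed by 0.36, 0.46 and 0.26 at 3 h and by 0.61, 0.50 and 0.44 at 6 h. In KO they changed by 0.89, 0.24 and 0.27 at 3 h and by 0.86, 0.45 and 0.42 at 6 h. The used probe changed by 0.10 and 0.67 in KO.

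Mybbp1a, a nucleolar regulator of ribosomal RNA synthesis, was also later. It read 12.15 and 12.02, then 12.62, 12.65 and 12.64, then 12.99 and 13.02, and then 12.48 and 12.31 in WT at 0, 3, 6 and 24 h. In KO it read 12.09 and 12.10, then 12.39 and 12.26, then 13.08 and 12.87, and then 12.69 and 12.67. The KO arrays lay below WT at 3 h, on both sides of WT at 6 h and above it at 24 h. Its WT call at 24 h was lost without array 2 of WT 0 h (0.25). Tcof1, which encodes the nucleolar protein treacle, was not called against 0 h at any time in WT (-0.06, 0.15 and 0.07), and in KO it was higher at 6 h (0.36) and 24 h (0.56), the 6 h call being lost without array 2 of KO 0 h (0.15) and the 24 h change being 0.35 without it.

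The nucleolar chaperones moved least. Ncl, which encodes nucleolin, read 11.48 and 11.18 at 0 h, 11.82, 11.98 and 11.99 at 3 h, 12.19 and 12.21 at 6 h and 11.63 and 11.28 at 24 h in WT. It rose by 0.60 ± 0.10 (SE, adjusted p = 2.23e-04 with limma) at 3 h and 0.87 ± 0.11 (SE, adjusted p = 2.23e-05) at 6 h, and its 24 h arrays overlapped those of 0 h. In KO its 24 h arrays stayed at 11.92 and 12.01, above the 11.33 and 11.34 of 0 h.

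Npm1, which encodes nucleophosmin, was the brightest gene of the list and was not called against 0 h in WT. Its 9 WT arrays lay between 14.17 and 14.58. In KO it was called at 24 h alone, at 14.59 and 14.66 against 14.22 and 14.25 at 0 h (0.39, adjusted p = 2.38e-03 with limma). Npm1 has near-identical processed pseudogenes, whose transcripts its probe may also bind. Nolc1, a phosphoprotein that links nucleoli and Cajal bodies, was called in WT at 3 h (0.33) and 6 h (0.36) and in KO at 6 h (0.18), the last call being lost without any 1 of 14 arrays.

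The snoRNP proteins held 2 patterns. Nop58 and Nop56 are the paired core proteins of the box C/D snoRNPs that guide methylation. Nop58 read 11.86 and 11.30 at 0 h, 13.17, 13.00 and 13.26 at 3 h, 13.24 and 13.21 at 6 h and 12.28 and 12.08 at 24 h in WT. In KO it read 11.69 and 11.46, then 13.35 and 13.05, then 13.27 and 13.39, and then 12.70 and 12.80. The genotypes overlapped at 0 and 3 h, and KO lay above WT at 6 and 24 h. Nop58 rose by 1.57 ± 0.14 (SE; 2.96-fold, adjusted p = 6.87e-07 with limma) in WT at 3 h and by 1.62 ± 0.15 (SE; 3.08-fold, adjusted p = 2.12e-06) in KO. Its WT change at 24 h was 0.60, and 0.32 and not called without array 2 of WT 0 h.

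Nop56 rose by 1.21, 1.57 and 0.65 in WT and by 1.10, 1.66 and 1.23 in KO at 3, 6 and 24 h. Rrp9, which binds the U3 small nucleolar RNA, read 9.53 and 9.40 at 0 h, 10.69, 10.79 and 10.74 at 3 h, 10.68 and 10.61 at 6 h and 9.78 and 9.71 at 24 h in WT. In KO it read 9.43 and 9.50, then 10.51 and 10.41, then 10.60 and 10.75, and then 10.25 and 10.22. KO lay below WT at 3 h and above it at 24 h, with arrays of a group within 0.15 of each other throughout. Its WT call at 24 h was lost without array 2 of WT 0 h (0.22).

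Nhp2, a protein of the box H/ACA snoRNPs that guide pseudouridylation, showed the other pattern. In WT it read 10.08 and 9.68 at 0 h, 10.77, 10.82 and 10.69 at 3 h, 10.85 and 10.86 at 6 h and 10.87 and 10.79 at 24 h. In KO it read 9.67 and 9.63, then 10.67 and 10.45, then 10.99 and 10.91, and then 11.26 and 11.26. On this probe the WT arrays stayed level from 3 h on, and the KO arrays were highest at 24 h. The 24 h rise of Nhp2 was the largest of the list in both genotypes, at 0.95 ± 0.11 (SE; 1.93-fold, adjusted p = 1.57e-05 with limma) in WT and 1.61 ± 0.11 (SE; 3.05-fold, adjusted p = 2.50e-07) in KO. A dimmer kept Nhp2 probe, at a mean level of 8.40, did not peak at 24 h. At 3, 6 and 24 h it changed by 0.44, 0.39 and 0.29 in WT and by 0.34, 0.40 and 0.34 in KO. The Nhp2 partner Gar1 rose by 0.77, 0.79 and 0.40 in WT and by 0.82, 0.96 and 0.82 in KO, the WT change at 24 h being 0.22 without array 2 of WT 0 h. Dkc1, which encodes the pseudouridine synthase dyskerin, was called in WT at 6 h (0.16) and 24 h (0.19) on a dim probe, the former call being lost without any 1 of 13 arrays and both without array 2 of WT 0 h.

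**Figure D2:**
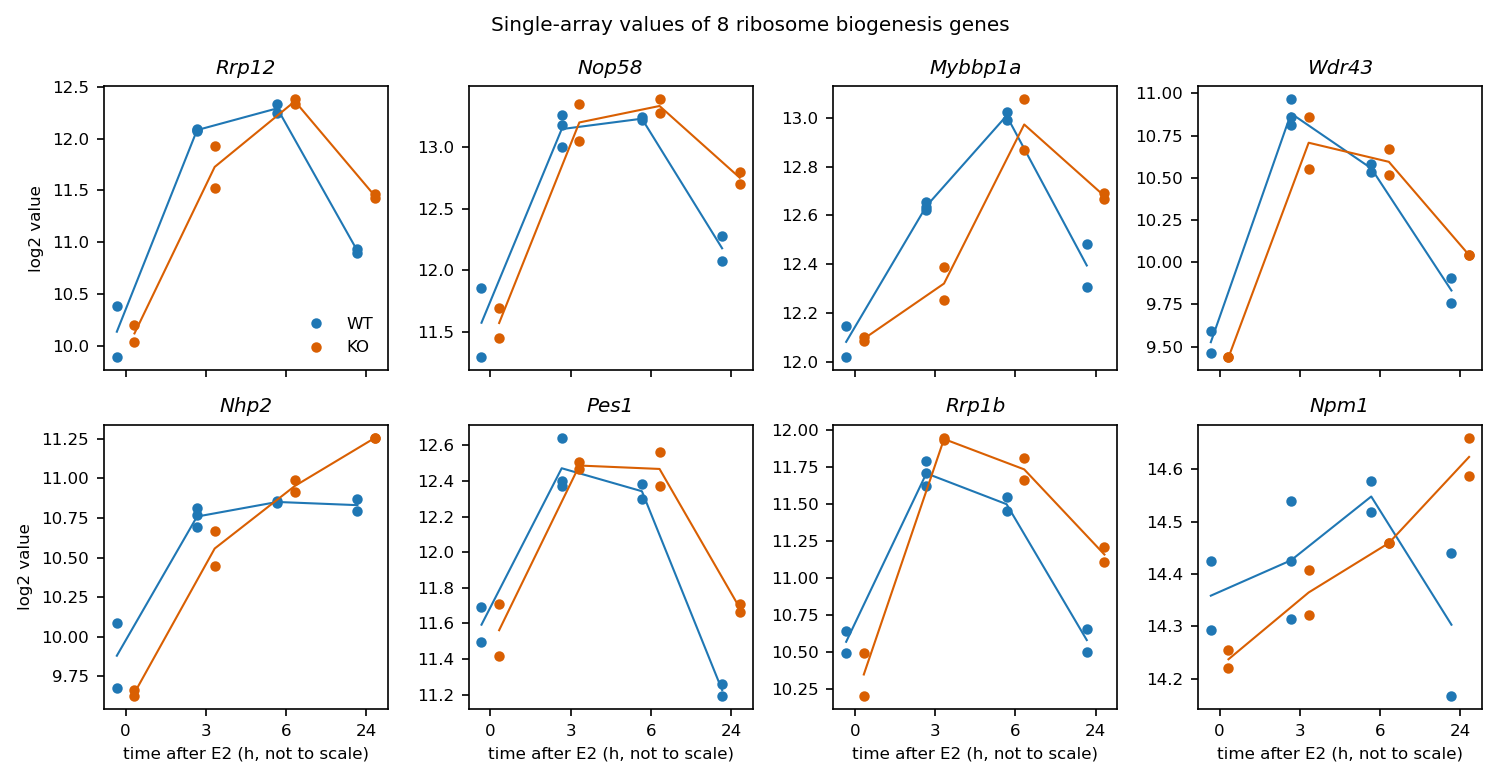
Log2 values of 8 ribosome biogenesis genes on each array (points) by time after E2, with lines through the group means, for WT (blue) and KO (orange); each panel has its own vertical axis and times are not to scale. Rrp12 and Nop58 peak at 3 to 6 h and fall back further in WT than in KO, Nhp2 stays up at 24 h, and WT Pes1 ends below its 0 h arrays.

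Among the 10 tested genes of the 40S pathway, 9 were higher at 3 h and 9 at 6 h in WT. Rrp12, whose product takes part in the maturation and export of both subunits, changed the most of all 38 genes at 3 and 6 h in WT. It read 10.39 and 9.89 at 0 h, 12.08, 12.09 and 12.08 at 3 h, 12.25 and 12.34 at 6 h and 10.90 and 10.94 at 24 h. The 0 h arrays were 0.5 apart, and those of 3 h nearly equal. Its rise was 1.94 ± 0.12 (SE; 3.85-fold, adjusted p = 3.17e-08 with limma) at 3 h, 2.15 ± 0.14 (SE; 4.45-fold, adjusted p = 5.94e-08) at 6 h and 0.78 ± 0.14 (SE; 1.72-fold, adjusted p = 4.77e-04) at 24 h. In KO it read 10.20 and 10.04, then 11.93 and 11.53, then 12.38 and 12.34, and then 11.46 and 11.43, a change of 1.61, 2.24 and 1.32.

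The small subunit processome, the first assembly on the precursor RNA, includes Wdr43, Wdr75, Utp15, Utp20, Pwp2, Nop14 and Imp4. Wdr43 read 9.59 and 9.46 at 0 h, 10.81, 10.97 and 10.86 at 3 h, 10.58 and 10.53 at 6 h and 9.90 and 9.76 at 24 h in WT. It was the only gene of the list called lower at 6 h than at 3 h in WT (-0.33, adjusted p = 0.0121 with limma), a call that was lost without either WT 6 h array. Wdr75 rose by 1.07, 1.10 and 0.45 in WT, and Utp15 by 0.71 and 0.49 at 3 and 6 h. Without array 2 of WT 0 h the WT calls of Wdr43 and Wdr75 at 24 h were lost, at 0.24 and 0.28.

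Pwp2 returned to its starting level in WT, with 9.69 and 9.70 at 0 h, 10.63 and 10.59 at 6 h and 9.65 and 9.77 at 24 h. In KO it went from 9.64 and 9.64 through 10.73 and 10.73 to 10.04 and 9.97, above both 0 h arrays. Imp4 was among the 5 genes with their highest KO mean at 24 h, at 11.93 and 11.91 against 10.96 and 10.97 at 0 h. Its WT changes of 0.49 at 3 h and 0.46 at 24 h were 0.30 and 0.28 without array 2 of WT 0 h, the latter no longer called. Nop14 rose by 0.81 and 0.69 in WT at 3 and 6 h. The late-acting Ltv1 and Nob1, the latter an endonuclease that makes the end of 18S RNA, rose by 1.28 and 0.96 in WT at 6 h.

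All 13 genes of the 60S pathway were higher in both genotypes at 3 and 6 h. Nop2, a methyltransferase of the large ribosomal RNA, had the smallest p-value of the list at 3 h. It read 9.42 and 9.26 at 0 h, 10.76, 10.82 and 10.89 at 3 h, 10.75 and 10.69 at 6 h and 9.73 and 9.81 at 24 h in WT, a rise of 1.48 ± 0.07 (SE; 2.80-fold, adjusted p = 3.14e-09 with limma) at 3 h. Nip7 rose by 1.37 and Mrto4 by 1.40 at the same time, both factors of early 60S particles.

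Bop1 and Pes1 belong to a single complex that is needed to process the RNAs of the large subunit, yet their courses differed. Bop1 read 9.88 and 9.42 at 0 h, 10.99 and 10.94 at 6 h and 10.63 and 10.43 at 24 h in WT, and stayed 0.88 above 0 h. Pes1 read 11.69 and 11.49 at 0 h, 12.37, 12.64 and 12.40 at 3 h, 12.30 and 12.38 at 6 h and 11.19 and 11.26 at 24 h. Both 24 h arrays lay below both 0 h arrays, and Pes1 was the 1 gene of the list that was lower than at 0 h (-0.37 ± 0.11 SE, adjusted p = 0.0155 with limma). The call was lost without the first array of WT 0 h or of WT 24 h. In KO Pes1 ended at 11.71 and 11.66, with 11.71 and 11.42 at 0 h.

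Rrp1b, a nucleolar protein of the 60S pathway, read 10.64 and 10.49 at 0 h, 11.62, 11.79 and 11.71 at 3 h, 11.55 and 11.45 at 6 h and 10.66 and 10.50 at 24 h in WT. In KO it read 10.49 and 10.20, then 11.93 and 11.95, then 11.66 and 11.81, and then 11.21 and 11.10. On this probe KO lay above WT at all 3 times after E2, and only WT returned to its 0 h level by 24 h. Another kept Rrp1b probe, at a mean level of 11.04, behaved alike. Its KO minus WT difference was 0.23 at 3 h, and its WT change at 24 h was 0.04. A further probe, at 9.05, differed by -0.08 at 3 h and changed by 0.42 in WT and 0.66 in KO at 24 h. The dimmest kept Rrp1b probe differed by -0.13 at 3 h and changed by 0.09 in WT and 0.29 in KO at 24 h. The dimmer Gnl3, which encodes nucleostemin, and Rrs1, which acts in 5S particle assembly, rose by 0.40 and 0.54 in WT at 3 h. Ebna1bp2, Brix1, Ftsj3, Rrp15 and Nle1, all 60S assembly factors, rose by 0.86 to 1.20 in WT at 3 h and by 0.31 to 0.75 at 24 h. Without array 2 of WT 0 h the 24 h change of Ebna1bp2 was 0.47, and Rrp15 (0.25) and Ftsj3 (0.22) were not called.

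The time of the peak varied within the list. In WT the highest group mean was that of 3 h for 14 genes, of 6 h for 22 and of 24 h for Dkc1 and Utp20. In KO it was that of 3 h for 6 genes, of 6 h for 27 and of 24 h for 5, which were Dkc1, Imp4, Nhp2, Npm1 and Tcof1. From 3 to 6 h 6 genes rose further in WT (13.3% of all genes were called higher), led by Bop1 (0.43), Polr1a (0.40) and Mybbp1a (0.37), and 1 fell (12.7% of all genes). In KO 16 rose over this step and 0 fell (11.7% of all genes each way), led by Bop1 (0.69), Mybbp1a (0.65) and Rrp12 (0.63). The KO count was 6 without array 2 of KO 3 h and 10 without either KO 6 h array, and the WT count of 7 was 2 and 3 without arrays 1 and 2 of WT 6 h in turn and 4 without array 1 of WT 3 h.

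From 6 to 24 h 33 of the 38 genes fell in WT and 0 rose (19% of all genes were called lower and 19.3% higher), with a median of -0.65. Rrp12 fell by 1.37 ± 0.14 (SE, adjusted p = 3.61e-06 with limma), Pes1 by 1.12 ± 0.11 (SE, adjusted p = 3.24e-06) and Nop58 by 1.05. In KO 21 fell, all of which also fell in WT, and 2 rose, Nhp2 by 0.30 and Imp4 by 0.28, calls that were lost without any 1 of 4 arrays for Nhp2 and of 14 for Imp4 (18.6% of all genes were called lower and 19.7% higher), with a median of -0.34. As a mean over its kept probes Nhp2 rose by 0.12 in KO over this step and was not called. Of the 33 genes called higher at 6 h in both genotypes, the 24 h change was a median of 36.2% of the 6 h change in WT, from -49.0% for Pes1 to 97.9% for Nhp2. In KO the median was 63.4%, from 13.8% for Pes1 to 143% for Imp4. The KO share was above the WT share for 33 of the 33 genes. Changes at 6 and 24 h share the 0 h arrays within a genotype. The 33 genes were read on the same arrays and are not independent replicates.

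**Figure D3:**
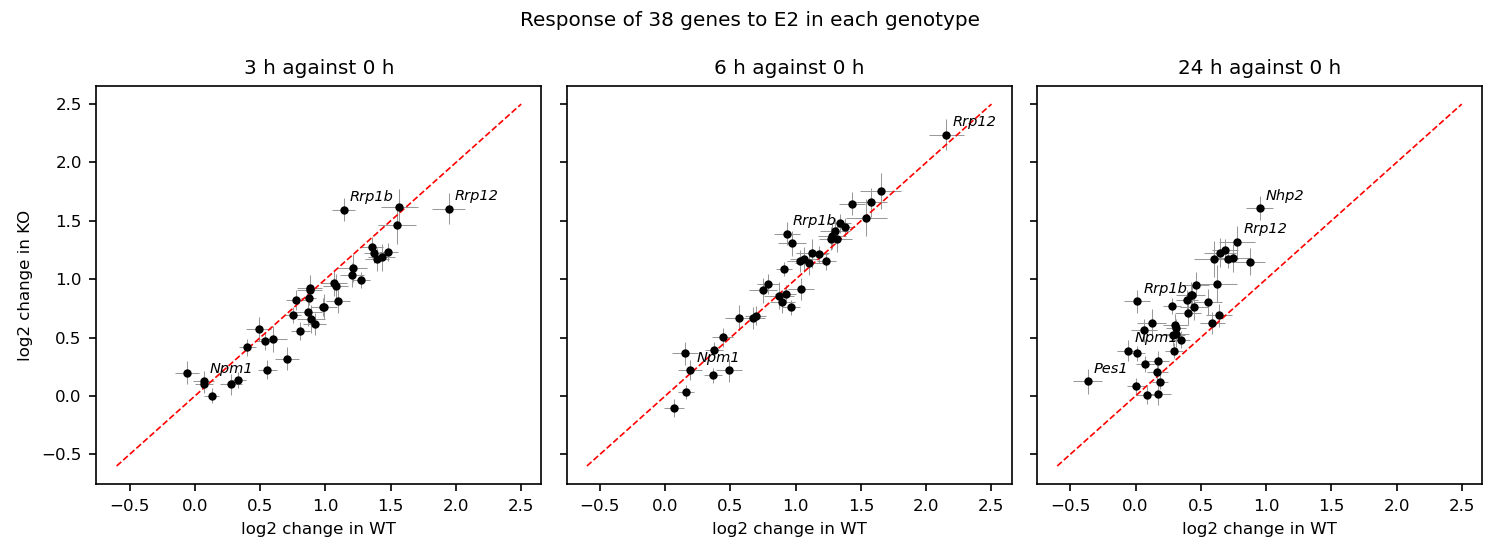
Change from 0 h of each of the 38 tested genes in WT (horizontal) against KO (vertical), log2, at 3, 6 and 24 h; bars are standard errors and the dashed line marks equal change. The KO change was the larger for 10, 25 and 35 of the 38 genes at the 3 times.

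Changes in the 2 genotypes ranked the genes alike, with a Pearson correlation across the 38 genes of 0.933 at 3 h, 0.964 at 6 h and 0.842 at 24 h (Spearman 0.943, 0.953 and 0.832). The genes of a genotype share arrays and are not independent replicates. Of the 34 genes called higher in WT at 3 h 32 were also called in KO, of the 35 at 6 h 33, and of the 26 at 24 h 25. Genes called higher at 24 h in KO and not in WT were Gnl3, Ncl, Nop14, Npm1, Pwp2, Rrp1b, Rrs1 and Tcof1. The WT count of 27 calls at 24 h was 15 without array 2 of WT 0 h, 12 calls being lost, and 15 with only the compared groups fitted.

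Before E2 the genotypes were not distinguished. At 0 h 0 of 38 genes were called (4.43% of all genes were called in either direction), with 2 at an unadjusted p under 0.05 with limma and a median difference, KO minus WT, of -0.03. Without array 2 of WT 0 h 5 genes were called lower in KO, and 1 gene without array 1 of KO 0 h.

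At 3 h 4 genes were lower in KO and 0 higher (2.07% of all genes were called lower and 2.16% higher), with a median of -0.15. They were Mrto4 (-0.34), Mybbp1a (-0.32 ± 0.07 SE, adjusted p = 0.0256 with limma), Nop2 (-0.31) and Rrp9 (-0.28). Heatr1 (-0.37, adjusted p = 0.0637) and Rrp12 (-0.36, adjusted p = 0.130) differed by more but missed the threshold. The calls rested on single arrays: 10 genes were called without array 1 of KO 3 h, 2 without array 1 of WT 3 h, and 0 without array 2 of KO 3 h or without either of the other two WT 3 h arrays. With array weights, or with only the compared groups fitted, 0 genes were called.

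At 6 h 0 genes were called (0.631% of all genes were called in either direction), with 2 at an unadjusted p under 0.05 with limma and a median of 0.02. The 95% interval of the difference ran from -0.22 to 0.36 for Rrp12 and from -0.23 to 0.44 for Nop58. Differences within these bounds are not excluded for these 2 genes.

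**Figure D4:**
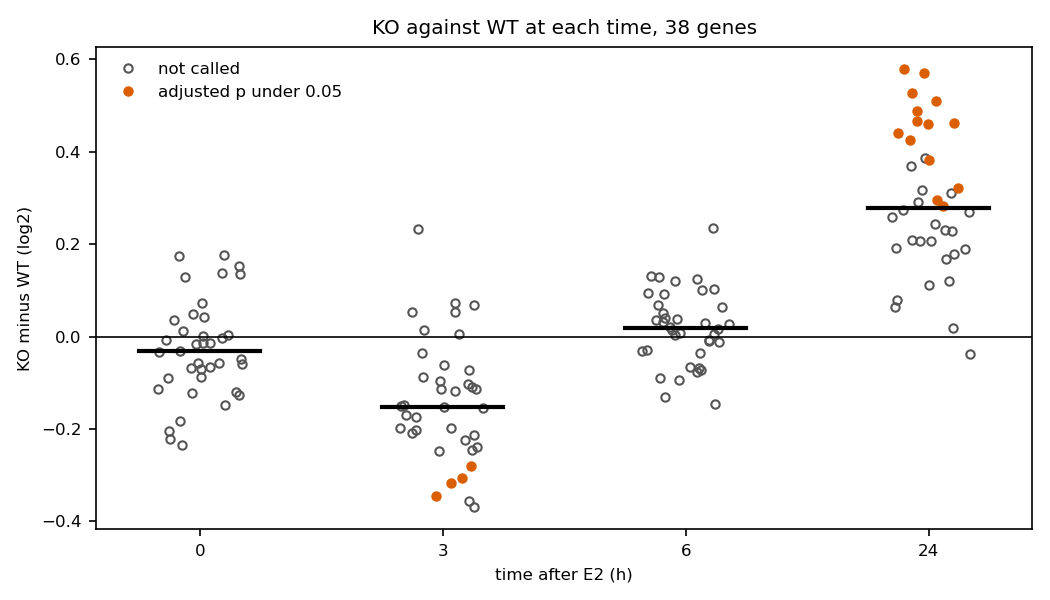
Difference between KO and WT (log2) of each of the 38 tested genes at each time after E2; filled orange points passed an adjusted p of 0.05, open points did not, and the bars mark medians. The medians were -0.03, -0.15, 0.02 and 0.28 at 0, 3, 6 and 24 h.

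At 24 h 14 genes were higher in KO and 0 lower, where 4.08% of all genes were called higher and 4.27% lower, and the median difference was 0.28. The difference was positive for 37 of the 38 genes, Utp20 (-0.04) being the exception, and both KO arrays lay above both WT arrays for 34, against 29.9% of all genes. All 38 genes were read on the same arrays, so these counts are not of independent replicates. Rrp1b differed by 0.58 ± 0.10 (SE; 1.49-fold, adjusted p = 2.97e-03 with limma), Nop58 by 0.57 ± 0.15 (SE; 1.49-fold, adjusted p = 0.0364) and Rrp12 by 0.53 ± 0.14 (SE; 1.44-fold, adjusted p = 0.0282). Rrp9 differed by 0.49 ± 0.07 (SE; 1.40-fold) with the smallest adjusted p of the list, 8.96e-04.

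Of the roles, the snoRNP proteins had 4 of 6 genes called, the chaperones 2 of 3, the 60S factors 5 of 13, the 40S factors 2 of 10 and the polymerase I group 1 of 6. The other calls were Ncl (0.51), Nop56 (0.47), Nip7 (0.46), Pes1 (0.46), Mrto4 (0.44), Nhp2 (0.43), Nop2 (0.38), Npm1 (0.32), Pwp2 (0.30) and Mybbp1a (0.28). The counts by role hold for the probes used. In the polymerase I group a second Ddx21 probe, at a mean level of 10.55, differed by 0.72, against 0.39 for the one used. The other kept Polr1a probes, at 9.58, 9.25 and 8.90, differed by 0.57, 0.11 and 0.06, against 0.17. The count of 14 fell to 3 and 5 without arrays 1 and 2 of KO 24 h in turn and to 6 and 5 without arrays 1 and 2 of WT 24 h, while the median stayed between 0.28 and 0.29 in each. Rrp1b, Rrp9 and Nip7 were called without any 1 of the 17 arrays. The count was 29 when the 24 h arrays alone were fitted and 29 with array weights.

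The genotype by time interaction asks whether the change from 0 h itself differed. At 3 h 0 genes were called (1.09% of all genes in either direction, 9 of the 38 at an unadjusted p under 0.05 with limma), and at 6 h also 0 (0.4% of all genes, 2 of the 38 unadjusted). Without array 1 of KO 0 h 2 genes were called at 3 h, and without array 2 of WT 0 h 2 at 6 h. At 24 h the KO change was larger for 10 genes and smaller for 0 (4.12% of all genes were called larger and 3.15% smaller), with a median of 0.32. They were Rrp1b (0.80 ± 0.14 SE, adjusted p = 5.62e-03 with limma), Nhp2 (0.66 ± 0.15 SE, adjusted p = 0.0192), Mrto4 (0.56), Tcof1 (0.50), Rrp9 (0.49), Nip7 (0.47), Npm1 (0.44), Nop2 (0.44), Gar1 (0.42) and Pwp2 (0.35), 8 of which were also called in the direct comparison at 24 h. The count was 3 and 22 without arrays 1 and 2 of WT 0 h in turn, and 6 and 2 without those of KO 0 h. It was 2 without either KO 24 h array, and 5 and 2 without arrays 1 and 2 of WT 24 h. The calls of Gar1, Npm1 and Tcof1 were lost without any 1 of 12, 11 and 11 of the 17 arrays. Other kept probes of the called genes gave interactions of 0.81, 0.23 and 0.20 for Rrp1b and 0.33 and 0.04 for Nop2. Dim ones, at mean levels of 8.20 to 8.40, gave 0.05 for Nhp2, 0.04 for Pwp2 and 0.0005 for Gar1. They gave -0.02 for Nip7 and -0.08 for Tcof1. Among genes not called, a second Ddx21 probe at 10.55 gave 0.93, against 0.34 for the one used. The other kept Polr1a probes, at 9.58, 9.25 and 8.90, gave 0.90, 0.06 and 0.15, against 0.24.

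A joint F-test over the 3 times called 9 of the 38 genes, against 6.83% of all genes, with Rrp9, Nop2, Mrto4 and Rrp1b at the largest F. This count was 15 and 18 without arrays 1 and 2 of WT 0 h in turn, 15 without array 1 of KO 3 h and 5 without array 2 of KO 0 h. It was 2 without either KO 24 h array, and 4 and 2 without arrays 1 and 2 of WT 24 h. The difference between genotypes in the step from 6 to 24 h leaves the 0 h arrays out. This difference was positive for 38 of the 38 genes, which share the same arrays, with a median of 0.28. It was called for 1 of them, Rrp9 (0.45, adjusted p = 0.0272 with limma), against 1.25% of all genes called in this direction and 1.46% in the other, and 15 of the 38 had an unadjusted p under 0.05. The call was lost without any 1 of the 6 h or 24 h arrays other than array 2 of KO 6 h. The count was 7 with only the compared groups fitted, 4 with array weights and 2 with the mean over probes.

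Other genes of the pathway were followed as separate lists. A list of 88 further ribosome biogenesis genes had 85 with a probe and 77 tested. The shares of all genes called in each comparison with 0 h, given above, lay between 18.9% and 24.5% and apply to the counts of these lists too. In WT 66 were higher and 2 lower at 3 h, 65 and 2 at 6 h, and 34 and 8 at 24 h, with medians of 0.51, 0.54 and 0.16. In KO the counts were 56 and 3, 62 and 3, and 46 and 6. Gtpbp4 (1.59) and Nol10 (1.49) rose most in WT at 3 h, and Nop53 (-0.71) and Nsa2 (-0.63) fell most, although all 4 act in subunit assembly. At 24 h 14 of the 77 (18.2%) were higher in KO than in WT and 0 lower, against 4.08% and 4.27% of all genes.

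Of 11 tested genes of the RNA polymerase I machinery beyond those above, 8 were higher at 3 h and 7 at 6 h in WT, with 0 lower. Cd3eap, a polymerase I subunit, rose by 1.31 and 1.35, and Polr1e, another, by 1.09 at 6 h. At 24 h Taf1a, a subunit of the promoter selectivity factor, was lower in WT (-0.39) and in KO (-0.80). RNA polymerase III, which makes 5S RNA and transfer RNA, had 6 of 12 tested subunit and factor genes higher (50%) and 3 lower (25%) at 3 h in WT, against 22.2% and 24.5% of all genes, and 6 higher and 0 lower at 6 h.

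The cytosolic ribosomal protein genes, whose products these factors assemble, did not follow. Of 53 tested, 2 were higher and 28 lower at 3 h in WT, 6 and 19 at 6 h, and 7 and 14 at 24 h, with a median of -0.17 at 3 h. In KO the counts were 3 and 17, 8 and 17, and 10 and 17. The signals of these bright genes lie where differences between arrays may be compressed, and many have near-identical pseudogenes. Mitochondrial ribosomal proteins, by contrast, were highest at 24 h. Of 73 tested, 27 were higher and 15 lower at 3 h in WT, 49 and 8 at 6 h, and 57 and 0 at 24 h. In KO 68 were higher and 0 lower at 24 h, and the median change was 0.39 in WT and 0.70 in KO. Mrpl12 rose by 0.92 in WT and 1.51 in KO at 24 h. Of 4 tested snoRNA host genes 3 were higher in WT at 3 h and 1 in KO. Snhg12 rose by 0.74 and Snhg5 by 0.53 in WT at 3 h, and at 24 h Snhg12 was lower than at 0 h in both genotypes (-0.46 in WT and -0.66 in KO).

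**Figure D5:**
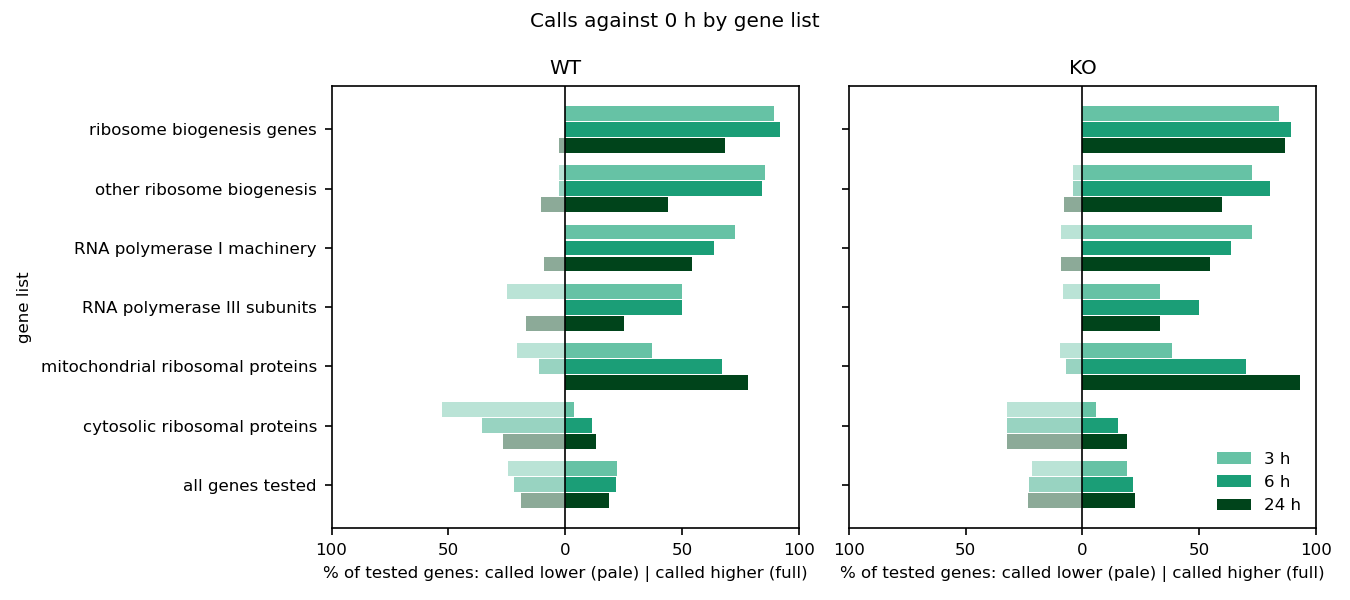
Share of tested genes called higher (right, full colour) and lower (left, pale) than at 0 h at 3, 6 and 24 h in WT and KO, for the ribosome biogenesis genes, 5 other lists and all genes tested. The ribosome biogenesis genes reach 89.5% at 3 h in WT, and the cytosolic ribosomal proteins have more genes lower than higher at each time.

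Lists of cell markers and of cell-cycle genes moved beside these changes, and their part in them was not tested. All 6 tested adipocyte markers of 8 fell at 3 h in both genotypes. Their summed linear signal was 8528 to 13627 in WT and 19532 to 20820 in KO at 0 h, and 2386 to 3979 and 2002 to 5838 at 3 h. Of 9 tested stromal fibroblast markers of 10, 7 fell at 3 h and 6 at 6 h in WT, from a summed signal of 64097 to 68324 at 0 h to 31511 to 34024 at 6 h. DNA replication genes were called higher at 24 h, 14 of 19 in WT and 19 of 19 in KO, and 10 of 19 were higher in KO than in WT at that time. Their summed signal was 34241 to 42997 in WT and 56975 to 62196 in KO at 24 h. It was 17046 to 30315 in WT at 0 h, where the 2 arrays differed (mean centred levels of 0.36 and -0.35). For 13 tested mitosis genes of 15, the summed signal at 0 h was 7667 to 13445 in WT and 5404 to 7189 in KO. At 24 h it was 20074 to 26503 in WT and 20298 to 20800 in KO, so the KO range lay within that of WT. Epithelial markers were higher at 24 h for 9 of 13 tested of 15 in WT, and in KO 5 of 13 were higher and 3 lower.

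Between the genotypes at 24 h, where the list was higher in KO, 0 of 13 epithelial markers were higher in KO and 2 lower, with a summed signal of 30206 to 31665 in KO and 35421 to 36204 in WT. Of 9 stromal markers 2 were lower in KO and 0 higher, with a summed signal of 35620 to 38382 in KO and 43479 to 46289 in WT. The summed signal of 10 smooth muscle markers was 124509 to 128358 in KO and 140202 to 145061 in WT. Of 10 tested macrophage markers of 11, 1 was lower in KO and 0 higher, and their summed signal was 7254 to 8200 in KO and 11888 to 12784 in WT. Of 10 endothelial markers 2 were higher in KO and 0 lower, with 18998 to 19492 in KO and 16219 to 16940 in WT. After E2 8 of the 10 were lower at 24 h in WT and 7 in KO, from 24748 to 28729 in WT at 0 h and 26994 to 28522 in KO.

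Further probes bore on the values of single genes. Of the 38 genes 19 had another kept probe, 28 probes in all. For genes called at 3 h in WT, 26 of 27 other probes changed in the same direction and 1, for Polr1b, in the opposite one. Of the 26, 5 changed by under 25% of the used probe's change. At 24 h 17 of 22 agreed in sign in WT and 23 of 28 in KO, and for KO against WT at 24 h 11 of 12 did, the exception being Nip7. Of these 17, 23 and 11 probes, 3, 4 and 4 changed by under 25% of the used one. The other probes of Bop1, Nip7 and Polr1b were dim, at mean levels of 8.29, 8.22 and 8.10, and changed by at most 0.13 in WT. Brighter probes also differed from the used one at 24 h. In WT 2 further Polr1a probes at mean levels of 9.58 and 9.25 changed by -0.13 and -0.07, against 0.29 for the used probe, and a Brix1 probe at 9.15 by -0.09 against 0.64. In KO the Polr1a probe at 9.25 changed by -0.01 against 0.52, and an Ebna1bp2 probe at 9.11 by -0.11 against 1.18. Also in KO, a Ddx21 probe at 10.55 changed by more than the used one (1.44 against 0.96), as did the Polr1a probe at 9.58 (0.78).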

How the data were processed

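Biotin-labelled cRNA of whole uteri was run on the Illumina MouseWG-6 v2 platform, and BeadStudio is the software named per the submitters' processing notes, with no version. The authors' deposited table holds log2 signals. All 17 of its columns share the same quantiles, so they had been quantile normalized. How background was subtracted and whether an offset was added before the log is not stated. No depth applies to arrays, and their number limits the precision. Of 45281 probes 34885 had 1 gene symbol. A probe was kept if it exceeded the array median on at least 2 arrays, and the brightest stood for its gene. A mean for each of 8 groups was fitted with limma 3.58.1 in R 4.3.3 (empirical Bayes without trend, 9 residual and 4.56 prior degrees of freedom). Tests were two-sided, and the fit was tested on simulated data. Every member may be named. Full statistics were given for the 3 largest rises and falls per comparison and the largest change per role, and from each other list up to 2 genes each way were named. Members and lists were chosen with earlier results of these data known. Same-numbered arrays of different groups did not deviate together (median correlation -0.001 over 56 pairs, from -0.19 to 0.31), so the number was no block. Alternatives were other dim-probe filters, the mean over probes, a trended prior, a fit of the compared groups, array weights, replicate blocks, centring and leaving out each array. Scanner values and detection calls were not analysed here.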

Additional observations from a re-analysis of the deposited data

Results flagged for a closer look

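The E2 response of 10 genes differed between the genotypes at 24 h by the interaction test, with a larger change in KO: Rrp1b by 0.80, Nhp2 by 0.66, Mrto4 by 0.56, Tcof1 by 0.50, Rrp9 by 0.49, Nip7 by 0.47, Npm1 by 0.44, Nop2 by 0.44, Gar1 by 0.42 and Pwp2 by 0.35 on the log2 scale. Rrp9 also differed in the step from 6 to 24 h, by 0.45. The moderated F-test over the 3 times singled out 9 genes, with an F of 22.9 for Rrp9, 14.5 for Nop2, 12.2 for Mrto4, 11.3 for Rrp1b, 10.9 for Nip7, 10.7 for Mybbp1a, 8.84 for Nhp2, 8.66 for Pwp2 and 7.78 for Rrp12. Rrp1b kept its interaction call at 24 h under every alternative that was run, and Rrp9 under every one except leaving out the second WT 24 h array. The other kept probes of Rrp1b gave interactions at 24 h of 0.81, 0.23 and 0.20, and another kept probe of Tcof1 gave -0.08.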

How the results depend on the processing

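Against 0 h, leaving out single arrays gave counts of called members of 33 to 36 in WT at 3 h, 34 to 35 at 6 h and 15 to 28 at 24 h, and 30 to 32, 32 to 35 and 32 to 33 in KO. From 6 to 24 h it gave 27 to 33 in WT and 17 to 25 in KO, and from 3 to 6 h 2 to 9 and 6 to 19. For KO against WT it gave 0 to 5 at 0 h, 0 to 10 at 3 h, 0 to 0 at 6 h and 3 to 21 at 24 h. For the interaction it gave 0 to 2 at 3 h, 0 to 2 at 6 h, 2 to 22 at 24 h, 0 to 1 in the step from 6 to 24 h and 2 to 18 over the 3 times. No result reversed. With the compared groups alone in the fit, 15 members were called in WT at 24 h against 0 h, 14 from 3 to 6 h in WT, 4 from 3 to 6 h in KO, 0 in KO against WT at 3 h, 29 at 24 h, 3 in the interaction at 24 h and 7 in the step from 6 to 24 h. The joint test could not be fitted in that way. Array weights gave 0 at 3 h and 29 at 24 h in KO against WT, 16 in the joint test and 4 in the step. The mean over probes gave 5 in the interaction at 24 h and 2 in the step. With a replicate block by the number in the labels 0 members were called in KO against WT at 3 h. A replicate block by the title letter gave 0 there and 10 from 3 to 6 h in KO. Neither replicate block moved another count by over 1.5 times. With 2 or 3 arrays a group, calls near the threshold depend on single arrays, and the dim probes of Dkc1, Utp20, Gnl3 and Nolc1 limit what small changes of these genes can be seen.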
